A study of Mus with 8 samples.

Results

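The Pparg locus was described by its C/EBPβ peaks. The cells were 3T3-L1, mouse preadipocytes that can be turned into adipocytes by hormones. The members were all peaks of the 4 deposited lists on chromosome 6 from 115211000 to 115541000 (mm9), which is the gene, taken as about 115311000 to 115440500 on the plus strand, with 100 kb on each side. There were 55 such peaks of 42729 in all, and they fell into 31 regions once overlapping peaks of different lists were merged. C cells carried a scrambled hairpin and P cells a hairpin against Prep1, a TALE homeodomain transcription factor. Both were made by pLKO.1 lentiviral infection of 3T3-L1 cells and puromycin selection, and no clone is named. Chromatin was taken at day −2, before the inducers, and at 4 h after confluent cells had received dexamethasone, 3-isobutyl-1-methylxanthine and insulin in serum. Each of the 4 conditions had 1 ChIP library and 1 input library without antibody, so no test between conditions was possible. Every interval given here is a 95% interval of counting error in these libraries, with peaks, regions or fragments counted as independent.

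Pparg encodes PPARγ, the nuclear receptor that drives fat cell formation and keeps the lipid storage genes of adipocytes on. The gene has alternative promoters, an upstream one for Pparg1 and an internal one for the adipocyte form Pparg2. C/EBPβ is a leucine zipper factor that is raised early after the inducers are added, ahead of Pparg and Cebpa, which then sustain each other. Exons, promoters and other genes were not placed on mm9 here, so sites are given by their position and their distance from the gene start.

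The depth implied by the genome background was between 7.82 and 7.85 M reads in the 4 libraries. As the peak caller gave it, fold enrichment compares the ChIP signal at a summit with the input around it, and −log10 p is the strength of the peak against that background. The number of ChIP fragments behind each summit was recovered from these 2 values. At day −2 the C list held 838 peaks and the P list 1653, and at 4 h they held 13525 and 26713. Their median fold enrichment was 8.01 and 9.96 at day −2, and 9.07 and 10.9 at 4 h.

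C/EBPβ peaks were dense at the Pparg locus in 3 of the 4 lists. In C cells no peak was listed at day −2 and 19 were listed at 4 h (interval 11.4 to 29.7). In P cells 6 peaks were listed already at day −2 (2.20 to 13.1), and 30 at 4 h (20.2 to 42.8). The P to C ratio of peak numbers at 4 h was 1.58 (0.860 to 2.97), and that of the whole lists was 1.98 (1.93 to 2.02). The ratio of the locus was thus lower than that of the lists, with an interval that took in both the list value and 1. From day −2 to 4 h the number rose 5-fold in the P lists at this locus (2.05 to 14.7) and 16.2-fold in the P lists as a whole (15.4 to 17.0).

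**Figure D1:**
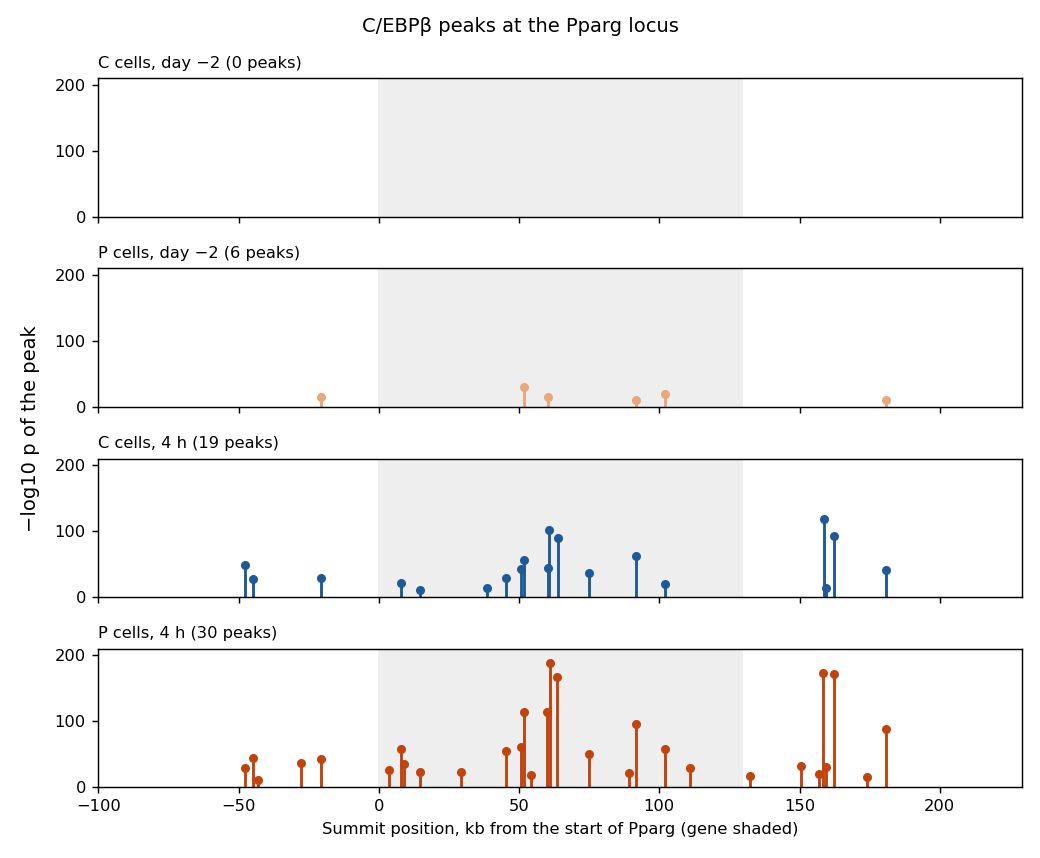
Position of each peak summit in kb from the start of Pparg (x axis, gene shaded) against its −log10 p (y axis), with 1 panel for each list. The day −2 panel of C cells is empty, that of P cells has 6 peaks under 30, and the tallest peaks at 4 h stand near 60 kb inside the gene and near 160 kb, past its end.

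The locus was then set against windows of the same size, 330 kb, tiled over chromosomes 1 to 19 and X. There were 7964 windows, with a median of 1 peak in the C list and 2 peaks in the P list at 4 h. In the C list at 4 h 1 window had at least 19 peaks, and the highest number was 20. In the P list at 4 h 2 windows had at least 30, and the highest number was 31. At day −2 the P list had at least 6 peaks in 3 windows, and no peak in 84.5% of all windows. With the P list cut to the 838 strongest peaks, the length of the C list, the locus kept 2 and 1.36% of windows had as many, so its day −2 density rests on the weaker peaks of that list. Only 1 window reached the locus in both 4 h lists, and 0 windows reached it in those and the P list at day −2 together. Of the 450 windows on chromosome 6, 0 reached the locus in any of these 3 lists, their highest numbers being 14, 26 and 5. The 3 windows with as many P peaks at day −2 had between them a median of 1 C peak at day −2 and each had at least 1, while the Pparg locus had 0. A window without a C peak at day −2 was common, at 91.0% of all windows.

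The strongest peak of the locus was less unusual than the number of its peaks. At 4 h its highest fold enrichment in C cells was 38.2, a height that 0.992% of windows reached, and 0.578% reached the 61.7 of P cells. In P cells at day −2 the highest value was 12.9, which 4.68% of windows reached.

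**Figure D2:**
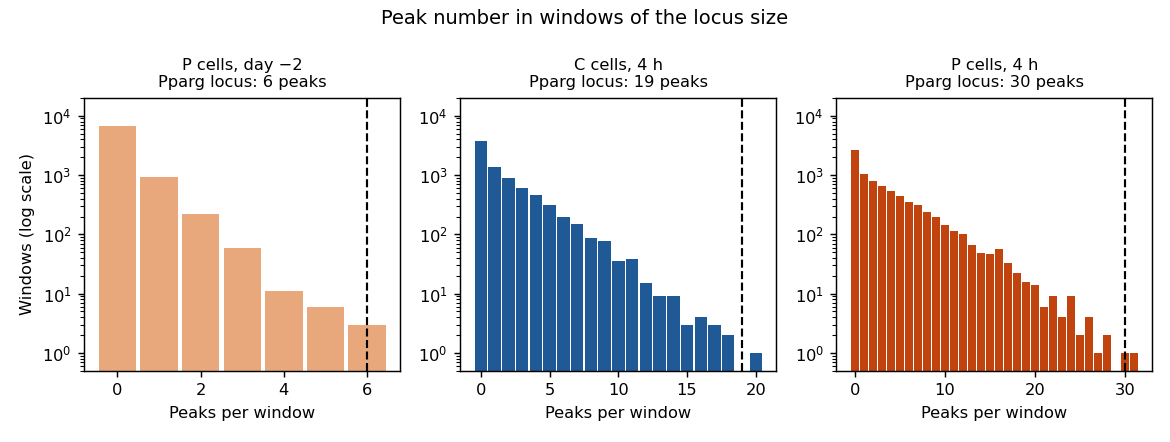
Number of peaks per 330 kb window (x axis) against the number of windows (y axis, log scale) for P cells at day −2 and for C and P cells at 4 h; the dashed line marks the Pparg locus, which is left out of the bars. The line stands at 6, 19 and 30 peaks, where 3, 1 and 2 windows have as many or more.

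The regions were numbered 1 to 31 along the chromosome. All lay between 115263207 and 115492104, so the first 52.2 kb and the last 48.9 kb of the window held none. The gene body held 18 regions, or 13.9 per 100 kb, the upstream flank 5 regions, or 5 per 100 kb, and the downstream flank 8, or 7.96 per 100 kb. The median distance between neighbouring summits was 6.17 kb. With 5 kb as the limit between neighbours, a distance chosen after the positions were seen, 18 of the 31 regions stood in 6 groups of 2 to 4 and the other 13 stood alone. The groups at 59.9 to 63.7 kb and at 157 to 162 kb from the gene start held the strongest peaks.

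Of the 31 regions, 6 were listed in P cells at day −2 and in both cell types at 4 h, 12 in both cell types at 4 h alone, 12 in P cells at 4 h alone and 1 in C cells at 4 h alone. Over the genome these classes made up 3.41%, 34.2%, 52.4% and 6.56% of 28658 merged regions. In all 19.4% of the 4 h regions of the locus had a day −2 peak (9.19 to 36.3), while 6.74% did over the genome. The interval of the locus lay above the genome value, but not under 2 other settings. It counts neighbouring regions of 1 locus as independent, so it is a description and no test against the genome. When each P list was cut to the length of its C list the share was 7.41% (2.06 to 23.4) against 6.89% over the genome, and with a reciprocal overlap of at least 50% it was 12.9% (5.13 to 28.9) against 6.10%. Counted by peaks, 6 of the 19 C peaks at 4 h overlapped a P peak of day −2, against 11% of the C list, and 6 of the 30 P peaks did, against 6.09% of the P list. A class found in all 4 lists held 1.77% of regions over the genome and none at the locus.

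The day −2 peaks of P cells came first. The strongest was region 14 (115362457 to 115362831, 51.6 kb into the gene), with a fold enrichment of 12.9 and a −log10 p of 29.4 from 31 fragments. Region 22 (115412795 to 115413106, 102 kb into the gene) followed with a fold enrichment of 9.10 and a −log10 p of 19.8. Region 5, the only one upstream of the gene (115290167 to 115290454, at −20.7 kb), had 8.84 and 15.2. Of the whole P list at day −2, 17.4% of peaks were at least as strong as region 14 by −log10 p, 40.4% as region 22 and 62.4% as region 5.

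The other 3 were weaker. Region 16 (115370742 to 115371402, 59.9 kb into the gene) had a fold enrichment of 8.08 and a −log10 p of 14.5. Region 21 (115402489 to 115403190, 91.8 kb into the gene) had 7.20 and 10.9. Region 31, past the gene (115491597 to 115492104, at 181 kb), had 7.11 and 10.4. Regions 21 and 31 stood near the bottom of the P list, in which 89.6% and 90.9% of peaks were at least as strong.

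None of the 6 had a C peak at day −2, and 68.6% of all P peaks at day −2 had none. The C list at day −2 went down to a −log10 p of 5.39 and to 7 fragments, and what lay below the caller's limit at these sites was not analysed here. The peak caller's fragment length was read here from the shortest peak of each list, and by that measure it differed between these libraries. The shortest C peak at day −2 measured 215 bp and the shortest P peak 163 bp. Of the 6 peaks 4 were at least 215 bp wide and 2 were narrower. Among all P peaks of day −2, 55.5% were narrower. Fragment length and cell type cannot be told apart at day −2. When only as many P peaks as the C list holds were taken, the strongest 838, 2 of the 6 remained.

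All 6 sites were listed in both cell types at 4 h. The share over the genome was 98.7% for the P list and 90.3% for the C list at 4 h. In P cells the fragments at the summit rose from 31 to 81 at region 14, a ratio of 2.61 (1.71 to 4.09), and from 26 to 52 at region 22, a ratio of 2.00 (1.23 to 3.34). At region 5 they rose from 18 to 36, again 2.00-fold (1.11 to 3.74). The ratios were larger at the other 3 sites. Region 16 went from 19 to 79 fragments, or 4.16-fold (2.50 to 7.27), counted at summits 287 bp apart. Region 31 went from 13 to 64, or 4.92-fold (2.68 to 9.74). Region 21 went from 14 to 89, or 6.36-fold (3.60 to 12.1), a ratio that 2.21% of all such pairs reached. By fold enrichment region 21 rose 3.12-fold, which 30.8% of pairs reached, less than region 16 (4.68-fold) and region 31 (4.38-fold). Its input background, relative to the genome background of each library, was 2.87 times higher at 4 h. Fold enrichment was at least 1.5 times higher at 4 h at 6 of 6 sites, against 80.1% of pairs over the genome, and the fragment interval lay above 1 at all 6, against 80.5%.

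The same 6 sites in C cells at 4 h were closer to the P values of day −2. The C to P ratio of fragments was 1.04 (0.58 to 1.85) at region 22, with 27 fragments in C cells at 4 h and 26 in P cells at day −2. It was 1.5 (0.80 to 2.89) at region 5 and 1.52 (0.94 to 2.47) at region 14, so at these 3 sites the interval took in 1. It was 2.32 (1.32 to 4.20) at region 16, 2.62 (1.35 to 5.40) at region 31 and 3.64 (1.99 to 7.13) at region 21. These 3 were the sites with the lowest −log10 p at day −2, and an interval above 1 was seen at 38.6% of such pairs over the genome. By fold enrichment C cells at 4 h were at least 1.5 times higher at 5 of the 6 sites, region 22 being the exception, against 50% over the genome.

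By fold enrichment the highest peak of the locus at 4 h lay in the gene body. Region 17 (115371597 to 115372173, 60.9 kb into the gene) had a fold enrichment of 38.2 and a −log10 p of 101 in C cells, and 61.7 and 188 in P cells. It stood 82nd by fold enrichment in the C list and 47th in the P list. Region 18 (115374479 to 115374935, 63.7 kb into the gene) had 35.1 and 89.4 in C cells and 40.9 and 167 in P cells. Neither had a day −2 peak in any list, although region 16, the neighbour of region 17, had one in P cells. Region 16 reached 15.0 and 43.5 in C cells and 37.8 and 114 in P cells.

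Regions 12 to 14 stood before these sites. Region 14 had a fold enrichment of 20.8 and a −log10 p of 56.1 in C cells and 36.0 and 113 in P cells. Region 13 (115361564 to 115361982) had 16.2 and 41.9 in C cells and 19.3 and 60.3 in P cells. Region 12 (115356234 to 115356525, 45.4 kb into the gene) had 13.6 and 28.7 in C cells and 15.2 and 54.6 in P cells. The −log10 p moved more than the fold enrichment at each of these sites, as at every other common site but region 2.

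The common sites nearest to the gene start were regions 7 and 9. Region 7 (115318700 to 115319190, 7.82 kb into the gene) had a fold enrichment of 11.0 and a −log10 p of 21.5 in C cells and 22.7 and 57.7 in P cells. Region 9 (115325543 to 115325814, 14.7 kb) had 6.52 and 10.22 in C cells and 12.0 and 22.4 in P cells. Fold enrichment at both was at least 1.5 times higher in P cells. Further along, region 19 (115385685 to 115385982, 74.8 kb) had 16.04 and 35.9 in C cells and 19.8 and 50.4 in P cells. Region 21 had 22.6 and 62.4 in C cells and 22.5 and 95.04 in P cells, a nearly equal fold enrichment. Region 22 had 8.12 and 19.6 in C cells and 20.4 and 58.1 in P cells. Its P/C ratio was 2.52 by fold enrichment and 1.93 by fragments.

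Strong sites were also found past the end of the gene. Region 27 (115469358 to 115469844, at 159 kb from the gene start) had a fold enrichment of 32.6 and a −log10 p of 118 in C cells, the strongest of the locus in that list by −log10 p, and 34.7 and 172 in P cells. Region 29 (115472748 to 115473508, at 162 kb) had 30.4 and 92.5 in C cells and 49.1 and 171 in P cells. Between them region 28 (115470270 to 115470494) had 7.37 and 13.1 in C cells and 10.24 and 30.1 in P cells, the lowest of this group of common sites. Region 31 had 17.3 and 40.0 in C cells and 31.2 and 87.4 in P cells.

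Upstream of the gene, region 1 (115263207 to 115263471, at −47.7 kb) was the only common site with fewer fragments in P cells. Its fold enrichment was 20.05 and its −log10 p 48.4 in C cells, against 14.3 and 29.0 in P cells. Its fragments numbered 39 and 27, a ratio of 0.69 (0.41 to 1.16), so the difference was within counting error. Region 2 (115265930 to 115266214) had 9.28 and 26.8 in C cells and 18.97 and 43.6 in P cells, with nearly equal fragments, 36 and 37. Region 5 had 13.3 and 28.7 in C cells and 18.5 and 42.0 in P cells.

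**Figure D3:**
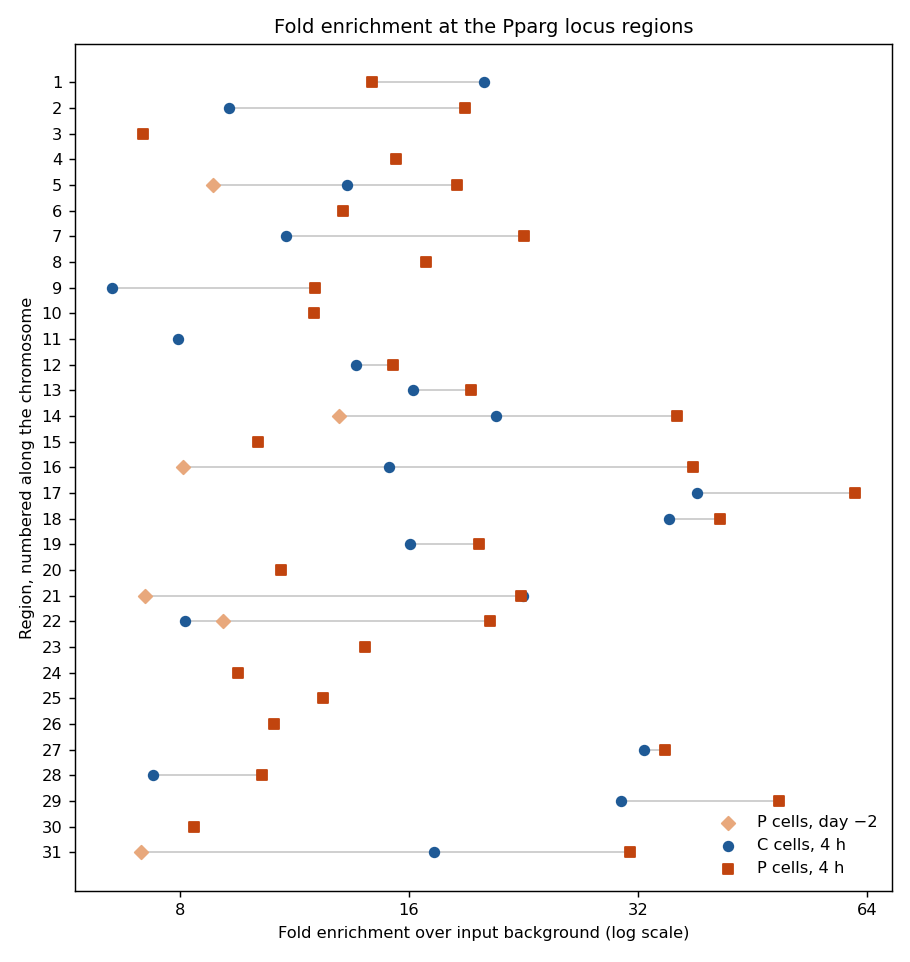
Fold enrichment over input background (x axis, log scale) of each of the 31 regions (y axis, in order along the chromosome) in P cells at day −2, C cells at 4 h and P cells at 4 h; C cells at day −2 have no point because no peak was listed. The highest points are regions 17 and 29 in P cells, at 61.7 and 49.1, and neither region has a day −2 point.

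The strongest 4 h sites were set against the day −2 list. Of the 6 P peaks of the locus with a −log10 p of at least 100 at 4 h, which are regions 14, 16, 17, 18, 27 and 29, 2 overlapped a P peak of day −2 (33.3%, 9.68 to 70.0). Over the genome 55.8% of 823 such peaks did. Of the 2 C peaks that strong at 4 h, 0 did (0 to 65.8%), against 77.1% of 109 over the genome, an interval below the genome value that rests on 2 peaks. When the limit was lowered to 50, 5 of 13 P peaks did (38.5%, 17.7 to 64.5) against 29.8%, and 2 of 6 C peaks against 52.2%. For the P peaks the locus was thus below the genome at one limit and above it at the other, and both of its intervals took in the genome value.

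The order of the sites was alike in both cell types at 4 h. Across the 18 common sites, Spearman's rho between C and P cells was 0.73 for fold enrichment and 0.80 for fragments, as a description of sites that share a library. Summits lay within 50 bp of each other at 16 of the 18 sites, and at 86.7% of pairs over the genome. The exceptions were region 13, at 70 bp, and region 16, at 254 bp. In region 16 the C summit was at 115371172 and the P summit of day −2 at 115371205, while the P summit of 4 h was at 115370918. The P peak there was 661 bp wide and the C peak 567 bp wide.

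The P to C difference at common sites was then compared. Fold enrichment was higher in P cells at 16 of 18 sites (88.9%, against 82.2% of all pairs), and the median log2 P/C ratio was 0.59, against 0.62 over 11616 pairs of the genome. At least 1.5 times higher in P cells were 9 of 18 sites, or 50%, against 51.9% of all pairs, and 0 were lower by as much, against 3.54%. The locus thus had about the shift that the lists had as a whole. By fragments the median log2 ratio was 0.79, against 0.71 over the genome. Fragments were more numerous in P cells at 17 of 18 sites (94.4%, against 88.5% of all pairs), with an interval above 1 at 12 of them. The share with such an interval was 40.5% over the genome, where common C peaks had a median of 18 fragments against 37.5 at this locus, so that intervals there were wider.

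**Figure D4:**
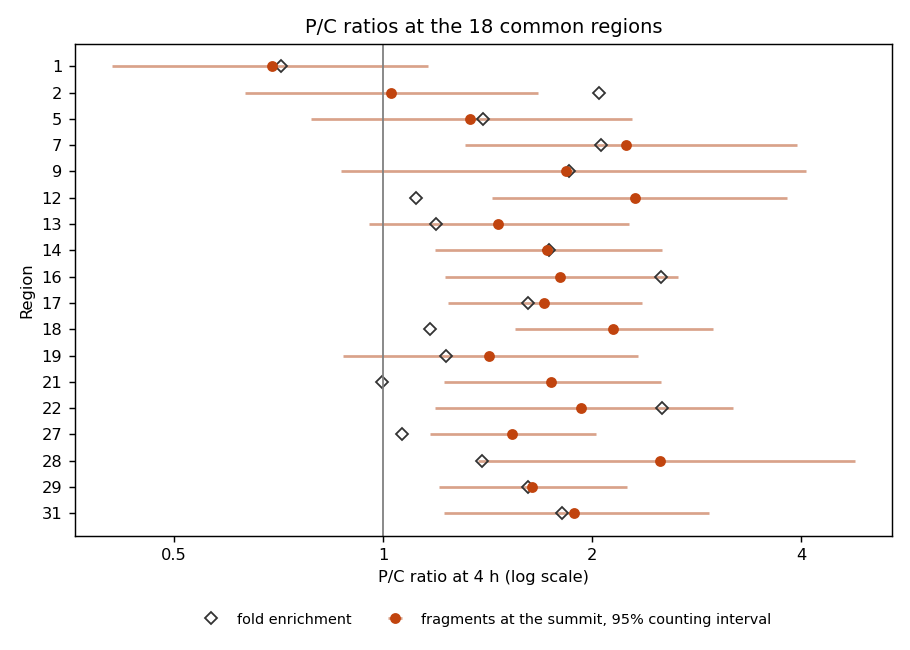
P/C ratio at 4 h (x axis, log scale) at the 18 regions common to C and P cells (y axis), as fragments at the summit with the 95% counting interval (filled) and as fold enrichment (open). Region 1 alone has a fragment ratio below 1, and at regions 12, 18, 21 and 27 the open symbol lies to the left of the interval.

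Fragments and input background were both recovered from fold enrichment and −log10 p. By that formula the fold enrichment and fragment ratios can part almost only through the background. Their agreement or disagreement below thus describes the background and is no separate result. At these peaks the background was small, between 0.65 and 3.00 fragments at 4 h. It was at least 1.5 times higher in P cells, relative to the genome background of each library, at 5 of the 18 sites, against 28.6% of all pairs. These are regions 12, 18, 21, 27 and 28. At region 21, for example, it was 3.00 fragments in P cells and 1.31 in C cells. Over these 5 sites the fold enrichment ratio was at most 1.39, while the fragment ratio was between 1.53 and 2.50 with an interval above 1 at each. At the other 13 sites the median log2 ratio was 0.79 by fold enrichment and 0.77 by fragments. At regions 2 and 16 the background was at least 1.5 times higher in C cells, with 2.99 fragments against 1.00 in P cells at region 2 and 1.99 against 1.11 at region 16. There the fold enrichment ratio, 2.04 and 2.51, was above the fragment ratio, 1.03 and 1.80. At region 16 the C and P summits lay 254 bp apart, so its values were read at different positions. What sets the input background at these sites was not tested.

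The 12 peaks listed in P cells alone at 4 h had a lower median than the common ones, with some overlap. Their fold enrichment lay between 7.16 and 16.8 with a median of 11.4, against a median of 21.5 for the 18 common P peaks, which began at 10.24. Over the whole P list the medians were 9.27 and 15.5. Their −log10 p ran from 10.4 to 35.5 and their fragments from 13 to 36. By −log10 p the first was region 4, upstream of the gene (115282984 to 115283267, at −27.9 kb), with a fold enrichment of 15.4 and a −log10 p of 35.5. Region 8 (115319619 to 115319956, 8.80 kb into the gene) had 16.8 and 34.4. Region 25, past the gene (115461508 to 115461832, at 151 kb), had 12.3 and 31.6. Of the 12, 6 lay in the gene body, 2 upstream and 4 downstream. The share of 4 h P peaks that C cells also had was 18 of 30 (60.0%, 42.3 to 75.4), against 43.2% of the P list.

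Of the 19 C peaks at 4 h, 18 overlapped a P peak (94.7%, 75.4 to 99.1), and 85.9% did over the genome. The exception was region 11 (115349468 to 115349647, 38.6 kb into the gene), with a fold enrichment of 7.95 and a −log10 p of 13.7 from 15 fragments. It was among the weakest C peaks of the locus, only regions 9 and 28 having a lower −log10 p.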

How the data were processed

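The authors sequenced ChIP and input DNA on an Ion Torrent instrument, aligned unique reads to mm9 with Bowtie (0.12.8), removed duplicates, equalised read numbers by down-sampling with Samtools and called peaks with MACS2 (2.0.10.20131028), 1 ChIP library against input per condition. Versions are those of the submitters' processing notes. The deposited lists give each peak's position, fold enrichment as a ratio, −log10 p, −log10 q and a score. The q-values and score were not used. Peak names carry an hour tag of 0 in the day −2 lists and of 5 in the 4 h lists, and groups follow the sample labels.

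Peaks were joined when they shared at least 1 bp, and where several P peaks overlapped 1 C peak the strongest by −log10 p made the pair. A pair was called at a P/C ratio of at least 1.5 or its inverse. Fragments were recovered from the caller's formulas (1 added to both terms of the fold, Poisson tail) with Python 3.11.15, numpy 2.4.6, pandas 2.3.3 and scipy 1.17.1. They came out whole, with −log10 p matched to 0.001, for 100% of peaks, once the ChIP counts of the P libraries were scaled by 0.996314 (day −2) and 0.998543 (4 h), and the recovery was tested on simulated data. Depth assumes a genome of 2.7e+09 bp. Intervals are exact Poisson or Clopper-Pearson for numbers and ratios and Wilson for shares. None of them covers variation between cultures, because each condition had 1 library. Windows ran from the first base of each chromosome to its last listed peak, and those touching the locus were left out. In full are given regions with a day −2 peak, regions common at 4 h, the 3 strongest of P cells alone and each of C cells alone. Figures were drawn with matplotlib 3.10.9. The gene bounds, members and rules were chosen with earlier results of these data known. Sequences and motifs were not analysed here.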

Additional observations from a re-analysis of the deposited data

How the results depend on the processing

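For 12 results, 11 settings gave 67 values. Of these, 59 moved by less than the counting interval (for a peak number, by at most 1.5 times), 8 moved by more and 0 changed sign. Peak numbers and shares have no sign, so the last number bears only on the P/C ratios. When each P list was shortened to the length of its C list, 2 peaks of the locus were left at day −2 and 7.41% of its 4 h regions had a day −2 peak (2.06 to 23.4), an interval that took in the genome value of 6.89%. The share of windows with as many P peaks was then 1.36% at day −2 and 0% at 4 h. Taking peaks from a −log10 p of 10 upwards removed 0 peaks of the locus, and 0% of windows then reached the C number at 4 h, since windows elsewhere lost peaks. Taking the gene with 50 kb on each side gave 0% of windows for the C number and 0% for the P number at 4 h. The locus then kept 18 C peaks and 29 P peaks at 4 h, while the windows it was set against were shorter. This setting is therefore no separate measure of its density. The median log2 P/C ratio of −log10 p, used instead of fold enrichment, was 0.90. Except where stated, the cause was not tested. A minimum fold enrichment of 5 removed no peak of the locus, nor did the −log10 p limit of 10. Both settings thus bear little on the stability of its peak numbers, shares and ratios. A setting chosen after seeing the data kept P peaks of day −2 that were at least as wide as the shortest C peak, which left 4 of 6. No paired analysis was possible because each group has 1 sample, and for the same reason no replicate could be left out.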

Other observations

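The peaks just outside the bounds were as follows. Before the window the nearest C peak at 4 h was 254 kb away and the nearest P peak at 4 h 13.0 kb away, with a fold enrichment of 8.03. After the window both cell types had a strong peak at 4 h from 115616681. Its summit was 75.8 kb past the bound in P cells and 75.9 kb in C cells. This peak had a fold enrichment of 57.2 in P cells and 38.6 in C cells. It would have ranked second among the P peaks of the locus and first among its C peaks by fold enrichment. The nearest day −2 peaks of P cells lay 284 kb before and 306 kb after the window, and those of C cells 1570 kb and 1732 kb away.

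Several peaks of the locus were wide. In P cells at 4 h the widest were region 29 at 761 bp, region 16 at 661 bp and region 21 at 649 bp. The median width of the P list was 242 bp. The C peaks of these regions at 4 h were 317, 567 and 597 bp wide, against a median of 233 bp in the C list. Region 16 was already 454 bp wide in P cells at day −2, where it stood 16th by width in a list of 1653 peaks.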
